A study of Homo sapiens with 27 samples.

Results

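The nuclear genes of the mitochondrial respiratory chain and ATP synthase were followed in 3 human cancer cell lines treated with SGX-523, a selective inhibitor of the c-Met receptor tyrosine kinase. A gene was a member if its symbol began with NDUFA, NDUFB, NDUFC, NDUFS or NDUFV, UQCR, COX4 to COX8 or ATP5, or was SDHA, SDHC, SDHD, CYC1 or CYCS, and it had a probe set that named it alone. The patterns took 93 genes of the 18132 with such a probe set. Of these, 88 passed the filter on low signal and were tested among 12386 genes. The other 5, COX4I2, COX7A1, COX7B2, COX8C and ATP5MGL, stayed below the filter, with mean log2 signals of 4.32, 3.95, 2.44, 3.62 and 3.70. The 88 comprised 36 complex I subunits, 8 complex I assembly factors of the NDUFAF series, 3 subunits of complex II, 9 of complex III, cytochrome c, 13 of complex IV and 18 of complex V. The patterns also take in a few genes that are not subunits, the NDUFAF factors, the ATP synthase inhibitor ATP5IF1 and the supercomplex factor COX7A2L, and left 78 subunits without them.

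Total RNA was profiled on 27 arrays, 3 for each of 9 groups, which the labels call biological replicates. MKN-45 carries the label gastric cancer, and EBC-1 and HCC827 that of non-small cell lung cancer. The series describes EBC-1 and MKN-45 as addicted to MET. HCC827 has activated c-Met without depending on it and served as the negative control. Each line had a DMSO group, for which the labels give no time, and groups given 1 uM SGX-523 for 24 h and for 48 h. The 24 h and 48 h comparisons of a line share its 3 DMSO arrays, and their results are not independent of each other. Values are log2 signals, and a change is the mean log2 signal with SGX-523 minus that with DMSO.

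Oxidative phosphorylation is carried out in the inner mitochondrial membrane. Complexes I and II pass electrons from NADH and succinate to ubiquinone, complex III passes them on to cytochrome c, and complex IV reduces oxygen. Complexes I, III and IV pump protons, and complex V, the ATP synthase, uses the gradient to make ATP. A few core subunits are encoded in mitochondrial DNA and were not analysed here, while all members described below are nuclear genes whose proteins are imported. NRF1 and ETS-family factors such as GABP are textbook activators of many of them. In bulk RNA, fewer mitochondria-rich cells and less RNA per cell cannot be told apart.

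Medians over all probe sets were 5.02 to 5.14 on EBC-1 and MKN-45 arrays and 5.71 to 5.73 on those of HCC827, so levels were not compared between HCC827 and the other lines. Replicate 3 of HCC827 at 24 h stood apart: its members deviated from their group means with an SD of 0.35 against at most 0.082 outside its group, and its 3' to 5' difference of ACTB was 3.40 against at most 2.44 on the other HCC827 arrays. Epithelial markers were at or above the array median for 5 of 6 in EBC-1, where CDH1 was at 3.20, and for 6 of 6 in MKN-45 and HCC827. The collagens COL1A1, COL1A2 and COL3A1 were at 2.47 to 4.04 in EBC-1 and MKN-45. The summed signal of 6 fibroblast markers went from 1097 to 1202 with DMSO in EBC-1 to 3499 to 3803 at 24 h, through LUM, while in MKN-45 it was 88.6 to 98.7 and 110 to 126. The summed signal of 6 epithelial markers went from 31434 to 31796 to 22798 to 23072 in EBC-1 and from 29306 to 30645 to 20440 to 20917 in MKN-45. At 24 h the keratin KRT18 fell by 1.34 in EBC-1 and fell by 2.32 in MKN-45, and KRT8 fell by 1.13 and fell by 2.24. Other epithelial markers rose: CLDN7 by 1.67 and KRT19 by 0.14 in EBC-1, where CDH1 rose by 1.28 at 48 h, and CDH1 by 0.60 in MKN-45. Of the 6 markers, 2 fell and 2 rose in EBC-1 at 24 h, and 4 fell and 1 rose in MKN-45. At 48 h 3 fell and 2 rose in EBC-1, with EPCAM lower by 0.46. The 45 external control probe sets were 0.33 to 0.35 higher with SGX-523 in EBC-1 and MKN-45 and 0.10 and 0.08 lower in HCC827. The 3' to 5' difference of ACTB was higher with SGX-523 at 24 h and 48 h by 0.39 and 0.53 in EBC-1, 0.15 and 0.62 in MKN-45 and 0.57 and 0.25 in HCC827, and that of GAPDH by 0.21 in MKN-45 at 48 h. The part of these shifts in the results was not tested.

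SGX-523 lowered most oxidative phosphorylation genes in both MET-addicted lines by small amounts. In EBC-1 at 24 h, 49 of the 88 members fell and 11 rose (limma, adjusted p under 0.05), with a median change of -0.20, where 28.1% of all genes tested fell, 31.2% rose and the median was 0.036. At 48 h in EBC-1, 59 fell and 8 rose with a median of -0.24, beside 28.9%, 32.8% and 0.067 over all genes. In MKN-45, 57 fell and 8 rose at 24 h with a median of -0.25, beside 26.9%, 33.4% and 0.051, or 60.3% of all genes in either direction. At 48 h in MKN-45, 51 fell and 11 rose with a median of -0.22, beside 26.2%, 36.4% and 0.056, or 62.6% in either direction. Few members moved 2-fold: 4 fell that far in EBC-1 at each time, 4 in MKN-45 at 24 h and 1 at 48 h, and no member rose that far in these 4 comparisons. The brightest probe set stood for each gene. Of 38 called members with other kept probe sets in EBC-1 at 24 h, 29 had all others of the same sign. For 4, another was called the opposite way. At 48 h in EBC-1 these counts were 29 and 7 of 40. In MKN-45 they were 36 and 1 of 43 at 24 h, and 31 and 1 of 40 at 48 h. After quantile normalization the MKN-45 counts at 48 h were 47 lower and 19 higher, and leaving out EBC-1 DMSO replicate 3 left 7 higher in EBC-1 at 24 h. The shares of all genes in these fits are not given here.

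The counts rest on changes that are small beside the range of levels but larger than the spread of replicates. All treated arrays lay below all DMSO arrays for 59 members in EBC-1 at 24 h, 67 at 48 h, 64 in MKN-45 at 24 h and 54 at 48 h. Separate arrays were not counted over all genes tested, so these counts do not set the members apart. In the same order, 59.2%, 61.6%, 60.3% and 62.6% of all genes passed in either direction. In MKN-45 at 48 h the ranges of DMSO and treated arrays overlapped for 18 members, the most among the 4 comparisons, and 1 of the 51 members called lower there had overlapping arrays. Across the 4 comparisons 38 members fell in each, 2 rose in each (ATP5MC2 and NDUFB5) and 7 passed in none. These joint patterns were not counted over all genes tested, so they describe the members without a share to set them against.

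The negative control line differed. In HCC827 at 24 h no member passed in either direction, beside 0.0323% of all genes, that is 4 genes, which all rose. At an unadjusted p under 0.05, 15 members were lower and 16 higher, and the median change was 0.033. The share of all genes at that unadjusted cut was not counted. This comparison depends on single arrays: leaving out HCC827 24 h replicate 1 gave 12 lower and 14 higher, leaving out replicate 2 gave 15 and 15, and leaving out replicate 3, the one that stands apart, gave 0 and 0. Shares of all genes without replicate 1 or replicate 2 were not counted, so those counts cannot be set against them. At 48 h 13 members fell and 5 rose with a median of 0.011, beside 10.7% and 11.6% of all genes and a median of 0.0069. Those counts were 18 and 12 without that replicate 3 of the 24 h group, since all 27 arrays share one estimate of spread, and 11 and 7 after quantile normalization. More of all genes also passed without that array, as given below, so the larger counts do not set the members apart. The shares of all genes after quantile normalization are not given here.

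**Figure D1:**
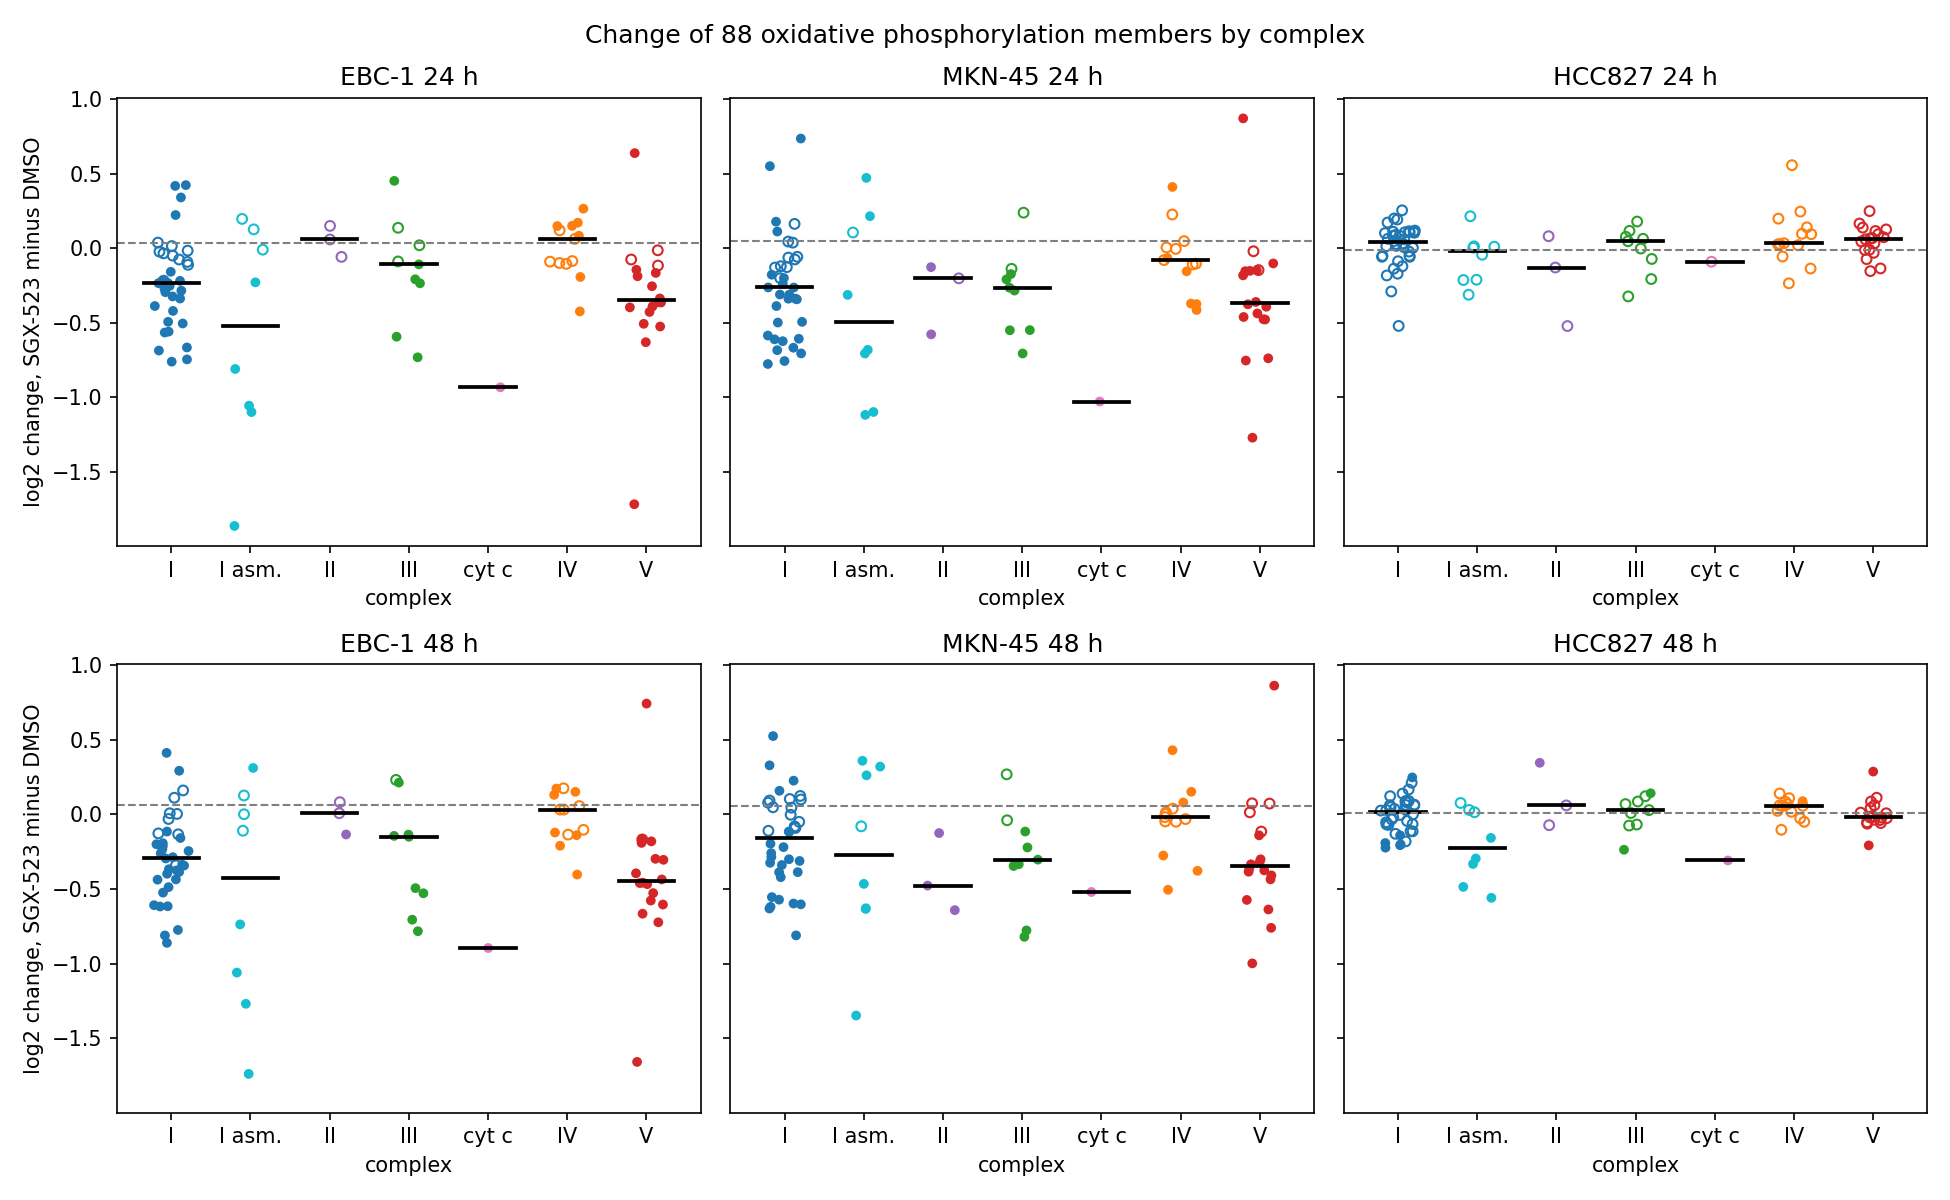
Change of each of the 88 tested members (vertical axis, mean log2 signal with SGX-523 minus DMSO) by complex, in 6 panels for EBC-1, MKN-45 and HCC827 at 24 h and 48 h. Filled points passed at adjusted p under 0.05, open points did not, black bars are medians of a complex and the dashed line is the median of all genes tested; in EBC-1 the bars of cytochrome c, which is 1 gene, the assembly factors and complex V lie lowest, and in HCC827 at 24 h all points are open.

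Complex I takes electrons from NADH, and its core subunits hold the flavin and the iron-sulfur clusters. The 6 nuclear core subunits measured, NDUFS1, NDUFS3, NDUFS7, NDUFS8, NDUFV1 and NDUFV2, moved together. In EBC-1 5 fell at 24 h and 6 at 48 h, in MKN-45 6 fell at both times, and none rose. Their median changes were -0.25 and -0.37 in EBC-1 and -0.33 and -0.37 in MKN-45, and in HCC827 at 48 h NDUFS3 alone fell, by 0.20.

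NDUFS1, the large iron-sulfur subunit, was at 9.84, 9.81 and 9.76 with DMSO in EBC-1, at 9.56, 9.50 and 9.65 at 24 h and at 9.30, 9.32 and 9.48 at 48 h. All treated arrays lay below all DMSO arrays, with changes of -0.23 (SE 0.07, adjusted p = 0.0036) and -0.44 (adjusted p = 3.07e-06). NDUFS7, which carries the last iron-sulfur cluster before ubiquinone, was at 10.07, 10.13 and 9.97 with DMSO in MKN-45, at 9.35, 9.50 and 9.45 at 24 h and at 9.27, 9.26 and 9.21 at 48 h. Its arrays did not overlap either, and it fell by 0.62 and 0.81 in MKN-45 against 0.27 and 0.29 in EBC-1. NDUFV1, the subunit that binds NADH, changed by -0.22 in EBC-1 at 24 h without passing (adjusted p = 0.103) and fell by 0.29 at 48 h and by 0.26 and 0.32 in MKN-45. NDUFS8 fell by 0.52 to 0.76 in the 4 comparisons, but its other probe set was not lower: it changed by 0.11 and 0.27 in EBC-1 and by 0.04 and 0.16 in MKN-45, and passed as higher in EBC-1 at 48 h.

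The 30 accessory subunits, which surround the core and stabilise it, were more divided. In EBC-1 17 fell and 4 rose at 24 h, and 20 and 2 at 48 h, and in MKN-45 16 fell and 4 rose at 24 h, and 14 and 4 at 48 h. Their median in MKN-45 was -0.23 at 24 h and -0.10 at 48 h.

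NDUFS6, a zinc-binding accessory subunit, was at 11.29, 11.32 and 11.25 with DMSO in EBC-1, at 10.49, 10.55 and 10.53 at 24 h and at 10.67, 10.66 and 10.67 at 48 h. The MKN-45 arrays read 11.70, 11.75 and 11.78, then 11.15, 11.06 and 11.19, then 11.45, 11.51 and 11.41. The groups did not overlap with DMSO in either line, and it fell by 0.76 and 0.62 in EBC-1 (adjusted p = 1.11e-14 at 24 h) and by 0.61 and 0.29 in MKN-45. NDUFAB1, the mitochondrial acyl carrier protein, fell by 0.75 and 0.86 in EBC-1 and by 0.71 and 0.57 in MKN-45. NDUFA9 fell by 0.69 and 0.77, and by 0.50 and 0.39. NDUFA12, the subunit that takes the place of the assembly factor NDUFAF2, fell by 0.49 and 0.61, and by 0.78 and 0.60.

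The remaining accessory subunits were mixed. NDUFA8, NDUFA11, NDUFB2, NDUFB6, NDUFB8 and NDUFV3 fell in all 4 comparisons: NDUFB8 by 0.28 and 0.37 in EBC-1 and by 0.61 and 0.63 in MKN-45, NDUFV3 by 0.49 to 0.60, and NDUFA11 by 0.12 to 0.26. NDUFS5 and NDUFB3 fell in EBC-1 at both times and in MKN-45 at 24 h, by 0.34 to 0.44 and by 0.20 to 0.31, and changed by -0.05 and -0.08 in MKN-45 at 48 h. NDUFA6 fell in EBC-1 by 0.50 and 0.37 and in HCC827 at 48 h by 0.19, and NDUFA7 and NDUFC2 fell in EBC-1 by 0.24 to 0.25 and by 0.23 to 0.34. NDUFC1 and NDUFB7 fell in MKN-45 at both times and in EBC-1 at 48 h, and NDUFA3 in MKN-45 by 0.67 and 0.39 and in EBC-1 at 24 h by 0.22. NDUFA1 and NDUFB1 fell in EBC-1 at 48 h by 0.11 and 0.16. NDUFA2 rose in EBC-1 by 0.34 and 0.29 and NDUFB11 by 0.22 at 24 h, while NDUFB4 and NDUFS4 rose in MKN-45 at both times by 0.18 and 0.23 and by 0.11 and 0.16. NDUFA5 and NDUFA13 did not pass in these 4 comparisons.

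NDUFB5, a subunit of the membrane arm, moved the other way. It was at 11.09, 11.14 and 11.15 with DMSO in EBC-1, at 11.55, 11.52 and 11.57 at 24 h and at 11.54, 11.53 and 11.56 at 48 h. Its values in MKN-45 were 10.50, 10.44 and 10.39, then 11.17, 11.23 and 11.14, then 10.98, 10.90 and 11.04. All treated arrays of both lines lay above their DMSO arrays, and it rose by 0.42 and 0.41 in EBC-1 and by 0.74 (adjusted p = 3.23e-12) and 0.53 in MKN-45. A second probe set of NDUFB5 rose in the same 4 comparisons, and in HCC827 the changes were -0.02 and 0.09, neither of which passed. NDUFA10, another accessory subunit, rose in MKN-45 by 0.55 and 0.33 and in HCC827 at 48 h by 0.25, while in EBC-1 it changed by -0.02 and 0.01.

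The assembly factors of complex I included some of the largest changes among the members. They build the complex from its modules and leave before it is complete. Of 8, 5 fell in EBC-1 at 24 h and none rose, 4 fell and 1 rose at 48 h, 5 fell and 2 rose in MKN-45 at 24 h, and 4 fell and 3 rose at 48 h. In HCC827 at 48 h 5 of the 13 members that fell were of this group: NDUFAF2, NDUFAF4, NDUFAF5, NDUFAF6 and NDUFAF8.

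NDUFAF4, which acts early in assembly, was at 9.67, 9.69 and 9.63 with DMSO in EBC-1, at 7.84, 7.71 and 7.85 at 24 h and at 7.91, 7.97 and 7.89 at 48 h. It fell by 1.86 (SE 0.07, adjusted p = 8.63e-18), a 3.64-fold fall, and by 1.74 at 48 h. MKN-45 gave 8.05, 8.09 and 8.01 with DMSO, at 6.86, 6.97 and 7.03 at 24 h and at 7.34, 7.49 and 7.43 at 48 h. No treated array of either line reached a DMSO array, and the falls in MKN-45 were 1.10 and 0.63. In HCC827 it was between 8.91 and 9.06 with DMSO, at 8.93, 9.04 and 8.86 at 24 h and at 8.49, 8.42 and 8.37 at 48 h. The 24 h arrays overlapped with DMSO, and those at 48 h lay below, a fall of 0.56 (adjusted p = 1.1e-06).

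NDUFAF2, a chaperone of late assembly and a paralogue of NDUFA12, was at 9.97, 9.89 and 9.81 with DMSO in EBC-1, at 8.81, 8.82 and 8.87 at 24 h and at 8.62, 8.56 and 8.68 at 48 h. In MKN-45 it was at 9.87, 9.94 and 9.88, then 8.73, 8.79 and 8.82, then 8.60, 8.57 and 8.47. Both lines thus showed separate groups with falls of 1.06 and 1.27 in EBC-1 and 1.12 and 1.35 in MKN-45 (adjusted p from 3.93e-17 to 5.47e-15). In HCC827 it changed by 0.01 at 24 h and fell by 0.16 at 48 h.

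NDUFAF5 modifies an arginine of NDUFS7 during assembly, and NDUFAF8 is its partner. NDUFAF8 fell by 1.10 and 1.06 in EBC-1, by 0.71 and 0.63 in MKN-45 and by 0.33 in HCC827 at 48 h. NDUFAF5 was at 8.24, 8.22 and 8.23 with DMSO in EBC-1, at 7.33, 7.43 and 7.50 at 24 h and at 7.55, 7.35 and 7.59 at 48 h. The MKN-45 arrays read 6.97, 7.11 and 7.07, then 7.17, 7.19 and 7.10, then 7.35, 7.37 and 7.39. It therefore fell in EBC-1 by 0.81 and 0.74, overlapped with DMSO in MKN-45 at 24 h and rose there by 0.32 at 48 h (adjusted p = 0.00162). NDUFAF3, a factor of early assembly, fell by 0.23 in EBC-1 at 24 h and by 0.68 and 0.47 in MKN-45. NDUFAF6 rose by 0.31 in EBC-1 at 48 h and fell by 0.31 in MKN-45 at 24 h. NDUFAF1 and NDUFAF7, which act in building the membrane and matrix arms, rose in MKN-45 at both times, by 0.21 and 0.36 and by 0.47 and 0.26, and did not pass in EBC-1.

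**Figure D2:**
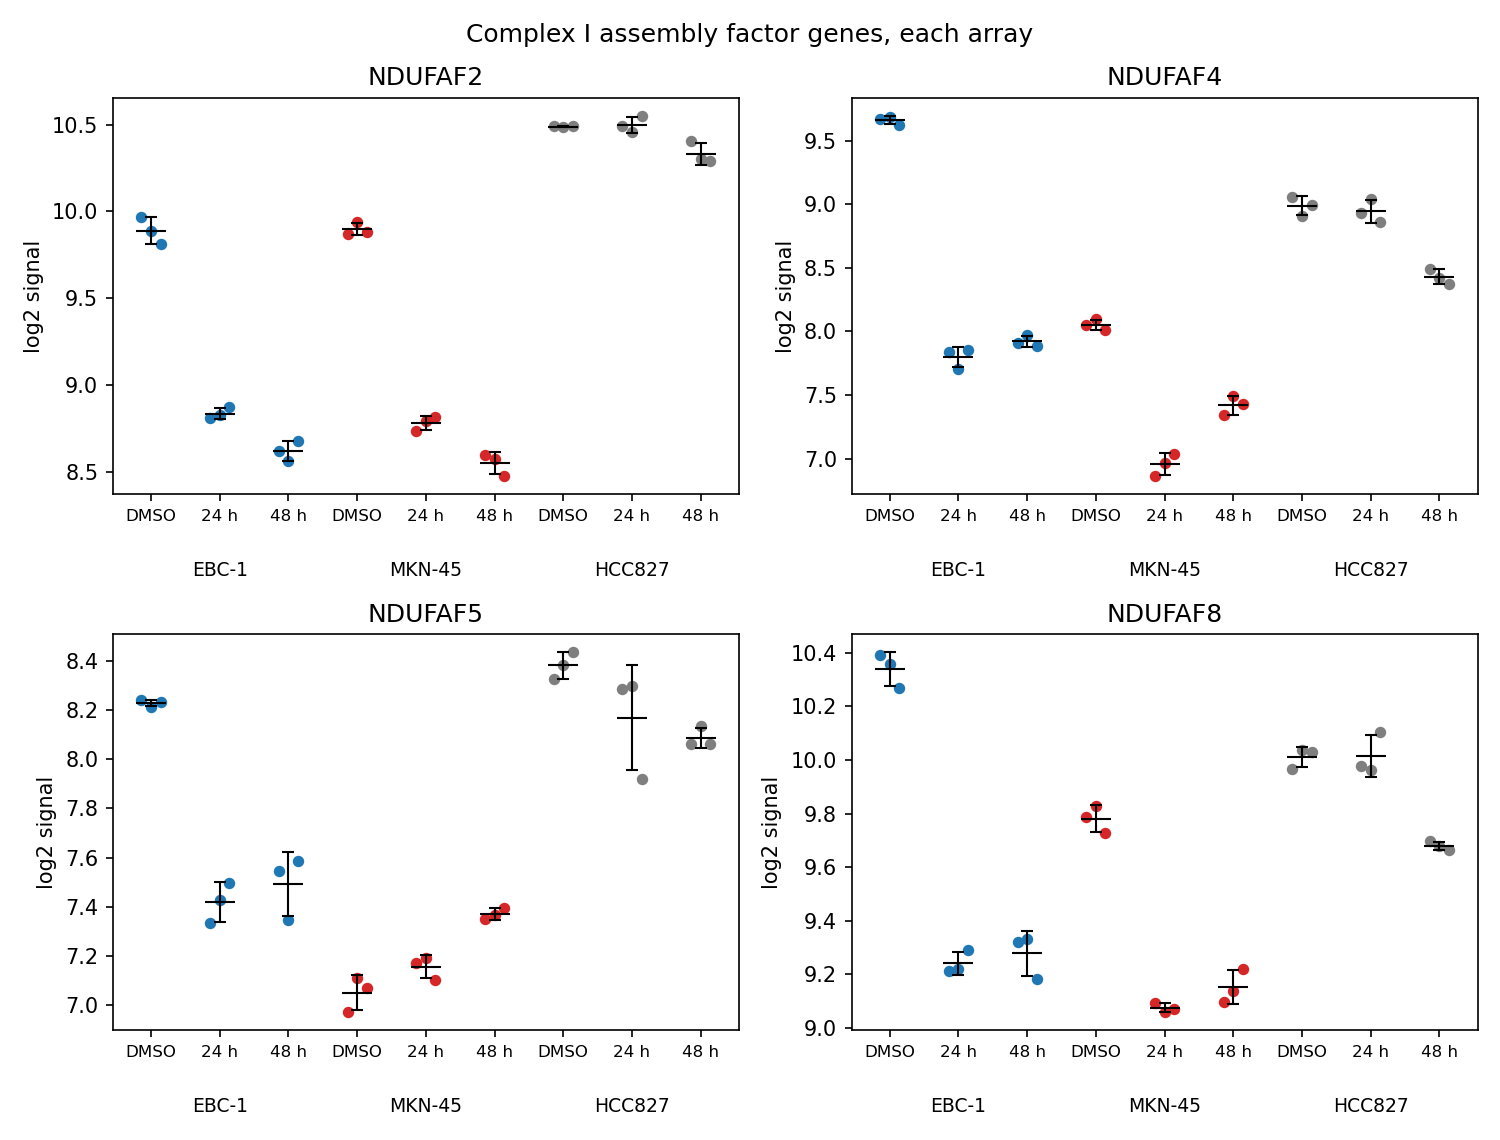
Log2 signal (vertical axis) of the complex I assembly factors NDUFAF2, NDUFAF4, NDUFAF5 and NDUFAF8 on each array, by line and treatment, with mean and SD of 3 arrays. NDUFAF4 drops from 9.67, 9.69 and 9.63 to 7.84, 7.71 and 7.85 in EBC-1, and NDUFAF5 drops in EBC-1 but not in MKN-45; levels are not comparable between HCC827 and the other lines.

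Complex II, succinate dehydrogenase, is also an enzyme of the TCA cycle, and of the 3 subunits measured none passed in EBC-1 at 24 h. SDHA, the flavoprotein that oxidises succinate, was at 10.41, 10.41 and 10.24 with DMSO in EBC-1, at 10.45, 10.37 and 10.41 at 24 h and at 10.34, 10.34 and 10.40 at 48 h. Its values in MKN-45 were 10.89, 10.88 and 10.81, then 10.21, 10.31 and 10.32, then 10.24, 10.32 and 10.09. The EBC-1 groups overlapped, with changes of 0.06 and 0.01, while in MKN-45 SDHA fell by 0.58 and 0.64 (adjusted p = 1.17e-09 at 48 h), and a second probe set fell there by 0.51 and 0.58. SDHC, a membrane anchor, fell by 0.12 to 0.13 in EBC-1 at 48 h and MKN-45 at both times and rose in HCC827 at 48 h by 0.35, from 10.14, 10.06 and 10.02 to 10.45, 10.44 and 10.37. In EBC-1 at 48 h the 4 other probe sets of SDHC spanned -0.28 to 0.29. SDHD, the other anchor, fell by 0.48 in MKN-45 at 48 h (adjusted p = 0.0442). In HCC827 at 24 h SDHD read 9.31 on the array that stands apart against 10.64 and 10.81 on its group mates, with a change of -0.52 that did not pass (adjusted p = 0.211).

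Complex III hands electrons from ubiquinol to cytochrome c. Of 9 members, 5 fell and 1 rose in EBC-1 at 24 h, 7 and 1 at 48 h, and 7 fell and none rose in MKN-45 at each time. CYC1, the haem-bearing cytochrome c1, was at 11.81, 11.74 and 11.66 with DMSO in EBC-1, at 11.02, 10.96 and 11.03 at 24 h and at 10.99, 10.92 and 10.95 at 48 h. MKN-45 gave 11.32, 11.36 and 11.25, then 10.57, 10.63 and 10.62, then 10.53, 10.50 and 10.43. The groups were separate in both lines. CYC1 fell by 0.73 and 0.78 in EBC-1, by 0.71 and 0.82 in MKN-45 and by 0.24 in HCC827 at 48 h (adjusted p = 0.0195), and its other 2 probe sets were lower in the same 5 comparisons.

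The core protein UQCRC1 parted the 2 MET-addicted lines. It was at 9.41, 9.42 and 9.40 with DMSO in EBC-1, at 9.54, 9.55 and 9.56 at 24 h and at 9.65, 9.57 and 9.66 at 48 h. In MKN-45 it was at 10.19, 10.27 and 10.17, then 9.64, 9.64 and 9.71, then 9.46, 9.53 and 9.31. Treated arrays were above DMSO in EBC-1 and below it in MKN-45, and UQCRC1 rose by 0.21 in EBC-1 at 48 h (adjusted p = 0.0258) and fell by 0.55 and 0.78 in MKN-45. Its second probe set fell by 0.68 and 0.92 in MKN-45 but changed by -0.02 and -0.10 in EBC-1, so the rise in EBC-1 rests on 1 probe set. UQCRQ, a small accessory subunit, fell by 0.59 and 0.71 in EBC-1 and by 0.55 and 0.30 in MKN-45, while its second probe set changed by -0.01, 0.12, 0.12 and 0.30 and did not pass. UQCRH, the hinge protein, and UQCRHL, a near-identical copy of it whose probe sets may read the same RNA, both fell in the 4 comparisons, by 0.17 to 0.49 and by 0.21 to 0.53. UQCRC2, the second core protein, fell by 0.15 in EBC-1 at 48 h and by 0.35 in MKN-45 at 48 h. Of the small subunits, UQCR10 fell by 0.11 to 0.26 in the 4 comparisons, UQCR11 fell by 0.14 in EBC-1 at 48 h and by 0.28 in MKN-45 at 24 h, and UQCRB rose by 0.45 in EBC-1 at 24 h (adjusted p = 0.0461).

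Cytochrome c itself, encoded by CYCS, carries electrons from complex III to complex IV. It was at 13.18, 12.90 and 12.97 with DMSO in EBC-1, at 12.01, 12.13 and 12.11 at 24 h and at 12.07, 12.16 and 12.13 at 48 h. The MKN-45 arrays read 12.50, 12.48 and 12.53, then 11.54, 11.47 and 11.42, then between 11.87 and 12.08. Treated arrays lay below DMSO in both lines, and the falls were 0.93 and 0.90 in EBC-1 and 1.03 and 0.52 in MKN-45 (adjusted p = 6.28e-06 at 48 h), with a fall of 0.31 in HCC827 at 48 h. The probe sets of CYCS did not read alike: the 2 others spanned changes of -1.38 to 0.16 and -1.33 to 0.64 in EBC-1 and -1.74 to -0.62 and -1.17 to 0.28 in MKN-45, and 1 of them passed as higher in EBC-1 at 48 h.

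Complex IV, cytochrome c oxidase, showed no common direction. Of 13 members, 2 fell and 5 rose in EBC-1 at 24 h, 4 and 3 at 48 h, 5 and 1 in MKN-45 at 24 h, and 3 and 3 at 48 h, with median changes of 0.063, 0.033, -0.079 and -0.017. The 13 include COX7A2L, which is not a subunit and was the only riser in MKN-45 at 24 h. It is also among those that rose in EBC-1 at 24 h and in MKN-45 at 48 h. COX7B and COX8A, small subunits of the membrane part, fell in all 4 comparisons. COX7B was at 12.08, 12.15 and 12.10 with DMSO in EBC-1, at 11.69, 11.68 and 11.69 at 24 h and at 11.75, 11.67 and 11.71 at 48 h, with no overlap. It fell by 0.42 and 0.40 in EBC-1 and by 0.37 and 0.28 in MKN-45, and COX8A fell by 0.19 to 0.38.

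COX5A, a subunit on the matrix side, fell by 0.14 in EBC-1 at 48 h and by 0.41 and 0.50 in MKN-45. COX5B fell by 0.12 in EBC-1 at 48 h and did not pass elsewhere. COX4I1, the ubiquitous form of subunit 4, rose by 0.15 in EBC-1 at both times and in MKN-45 at 48 h, but the direction in EBC-1 depended on the probe set: with probe sets ending in _s_at or _x_at left out it changed by -0.17 and -0.11. COX6C, a small membrane subunit, rose by 0.15 in EBC-1 at 24 h and fell by 0.15 in MKN-45 at 24 h. COX7C rose by 0.08 and 0.17 in EBC-1, by 0.08 in MKN-45 at 48 h and by 0.09 in HCC827 at 48 h. COX7A2L, which helps complexes III and IV join into supercomplexes, rose by 0.27 in EBC-1 at 24 h (adjusted p = 0.0402) and by 0.41 and 0.43 in MKN-45.

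The paired isoforms of complex IV were mostly represented by 1 form. COX4I2, COX7A1 and COX8C stayed below the filter, and COX6A2 and COX6B2, the muscle and testis forms, passed it but not the test in any of the 6 comparisons. COX6A1, the ubiquitous form, was at 13.33, 13.34 and 13.32 with DMSO in EBC-1, at 13.52, 13.48 and 13.51 at 24 h and at 13.48, 13.43 and 13.48 at 48 h. Its groups in EBC-1 were separate by a small margin, and it rose by 0.17 and 0.13 there and fell by 0.06 in MKN-45 at 24 h (adjusted p = 0.0167). COX6B1 and COX7A2 did not pass in any comparison.

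Complex V fell in most of its parts: 14 of 18 members fell in EBC-1 at 24 h, 16 at 48 h, 15 in MKN-45 at 24 h and 13 at 48 h, and 1 rose in each. The median changes were -0.35, -0.45, -0.37 and -0.35, and in HCC827 1 fell and 1 rose at 48 h. The F1 part, which holds the catalytic sites, is made of ATP5F1A, ATP5F1B, ATP5F1C, ATP5F1D and ATP5F1E, the alpha to epsilon subunits. All 5 fell in the first 3 comparisons and 4 in MKN-45 at 48 h, where ATP5F1E changed by 0.07 (adjusted p = 0.0962).

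ATP5F1B, the catalytic beta subunit, was at 11.83, 11.91 and 11.90 with DMSO in EBC-1, at 11.53, 11.48 and 11.43 at 24 h and at 11.33, 11.38 and 11.34 at 48 h. Its values in MKN-45 were 12.03, 12.16 and 12.16, then 11.63, 11.70 and 11.64, then 11.53, 11.53 and 11.38. The groups were separate, with falls of 0.40 and 0.53 in EBC-1, 0.46 and 0.64 in MKN-45 and 0.21 in HCC827 at 48 h, and a second probe set was lower in the same 5 comparisons. ATP5F1A fell by 0.17 and 0.39 in EBC-1 and by 0.15 and 0.32 in MKN-45, and ATP5F1C by 0.34 to 0.47. ATP5F1D fell by 0.36 and 0.44 in EBC-1 and by 0.38 and 0.76 in MKN-45.

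The peripheral stalk holds F1 still against the rotor. ATP5PB, its b subunit, was at 12.75, 12.79 and 12.79 with DMSO in EBC-1, at 12.26, 12.29 and 12.25 at 24 h and at 11.96, 12.12 and 12.08 at 48 h. It fell by 0.51 and 0.72 in EBC-1 (adjusted p = 5.68e-16 at 48 h) and by 0.18 and 0.30 in MKN-45. ATP5PF, coupling factor 6, was at 10.49, 10.55 and 10.55 with DMSO in MKN-45, at 9.80, 9.76 and 9.77 at 24 h and at 10.06, 10.17 and 10.13 at 48 h. All treated arrays lay below DMSO, with falls of 0.75 and 0.41 in MKN-45 and 0.36 and 0.46 in EBC-1. ATP5PO, the subunit that joins the stalk to F1, fell by 0.16 in EBC-1 at 48 h and by 0.15 and 0.14 in MKN-45. ATP5PD did not pass in any comparison. The other membrane subunits, ATP5ME, ATP5MF, ATP5MG, ATP5MJ and ATP5MK, which brace the synthase and its dimers, fell 5 of 5 in EBC-1 at both times and 4 of 5 in MKN-45. ATP5MF fell by 0.39 and 0.46 in EBC-1 and by 0.74 and 0.57 in MKN-45, ATP5MJ by 0.37 to 0.67, ATP5MK by 0.38 to 0.60 and ATP5ME by 0.25 to 0.36. ATP5MG fell by 0.14 and 0.30 in EBC-1 and changed by -0.02 and 0.07 in MKN-45. ATP5IF1, which blocks ATP hydrolysis by the enzyme, fell by 0.18 in EBC-1 at 48 h and by 0.10 in MKN-45 at 24 h and did not pass in the other 4 comparisons.

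The rotor ring of subunit c showed opposite changes within one protein. ATP5MC1, ATP5MC2 and ATP5MC3 encode the same mature protein behind different import leaders, so their RNAs add up to one product. The 250 bases upstream of the RefSeq start are shown for the 2 that parted most, and for CYCS and ATP5PF, which fell in all 4 comparisons. They are read 5′ to 3′ on the gene's strand in GRCh38.p14, and capitals mark GCATGCGC or its reverse complement GCGCATGC, the core of the NRF1 motif. The regions are chr17:48892537-48892786 on the plus strand for ATP5MC1 and, on the minus strand, chr12:53676084-53676333 for ATP5MC2, chr7:25125261-25125510 for CYCS and chr21:25735055-25735304 for ATP5PF.
ATP5MC1: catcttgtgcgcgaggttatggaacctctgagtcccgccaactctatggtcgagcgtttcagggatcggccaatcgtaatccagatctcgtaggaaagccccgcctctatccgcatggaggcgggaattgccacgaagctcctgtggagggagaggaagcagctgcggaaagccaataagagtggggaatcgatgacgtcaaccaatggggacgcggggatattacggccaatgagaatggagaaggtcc
ATP5MC2: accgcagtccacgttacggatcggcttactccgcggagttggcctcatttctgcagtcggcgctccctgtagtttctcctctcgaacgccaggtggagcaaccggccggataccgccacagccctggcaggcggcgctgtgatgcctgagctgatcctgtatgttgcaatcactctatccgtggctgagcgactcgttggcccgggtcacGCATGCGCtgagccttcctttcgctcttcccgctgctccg
CYCS: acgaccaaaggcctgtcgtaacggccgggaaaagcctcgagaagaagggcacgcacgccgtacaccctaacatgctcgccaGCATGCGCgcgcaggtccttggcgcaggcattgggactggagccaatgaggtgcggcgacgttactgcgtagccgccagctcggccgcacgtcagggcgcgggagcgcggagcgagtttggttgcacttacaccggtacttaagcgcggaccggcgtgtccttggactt
ATP5PF: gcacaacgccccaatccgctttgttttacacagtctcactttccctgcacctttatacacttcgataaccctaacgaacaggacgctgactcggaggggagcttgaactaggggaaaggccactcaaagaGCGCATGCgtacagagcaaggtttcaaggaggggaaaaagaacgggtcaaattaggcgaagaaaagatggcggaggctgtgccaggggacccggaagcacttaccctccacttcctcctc
The motif lay 40 bases before the start in the ATP5MC2 window, 169 in that of CYCS and 120 in that of ATP5PF, and these letters were not in the window of ATP5MC1. RefSeq gives further starts for 2 of the genes, and the window shown is the first listed. Of 2 further windows of ATP5MC2, 1 holds the motif, 58 bases before the start, and the other does not. The second window of ATP5PF does not hold it and has CCGGAAGT 8 bases before the start.

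ATP5MC1 was at 11.03, 11.04 and 10.93 with DMSO in EBC-1, at 9.20, 9.25 and 9.40 at 24 h and at 9.35, 9.33 and 9.35 at 48 h. MKN-45 gave 9.36, 9.35 and 9.37, then 8.17, 8.02 and 8.07, then 8.29, 8.35 and 8.44. The treated arrays lay far below DMSO in both lines. ATP5MC1 fell by 1.72 (SE 0.08, adjusted p = 1.7e-15), a 3.29-fold fall, and by 1.66 in EBC-1, and by 1.27 and 1.00 in MKN-45. In HCC827 it was at 10.70, 10.64 and 10.66 with DMSO, at 10.79, 10.77 and 11.19 at 24 h and at 10.84, 10.72 and 10.71 at 48 h, and the changes of 0.25 and 0.09 did not pass (adjusted p = 0.211 and 0.506).

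ATP5MC2 was at 11.37, 11.39 and 11.31 with DMSO in EBC-1, between 11.96 and 12.02 at 24 h and at 12.10, 12.11 and 12.09 at 48 h. In MKN-45 it was at 11.41, 11.40 and 11.33, then 12.24, 12.29 and 12.23, then 12.22, 12.32 and 12.20. All treated arrays lay above DMSO. It rose by 0.64 and 0.74 in EBC-1 and by 0.87 and 0.86 in MKN-45 (adjusted p from 1.22e-14 to 4.6e-12 at 24 h), and in HCC827 by 0.29 at 48 h (adjusted p = 3.83e-05), from 11.26, 11.20 and 11.14 to 11.52, 11.52 and 11.42.

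ATP5MC3 was at 12.97, 13.01 and 13.06 with DMSO in EBC-1, at 12.37, 12.43 and 12.36 at 24 h and at 12.45, 12.46 and 12.40 at 48 h. It fell by 0.63 and 0.58 in EBC-1 and by 0.48 and 0.36 in MKN-45, and its 3 other probe sets fell in the same 4 comparisons. In HCC827 it changed by -0.03 and -0.02. ATP5MC1 and ATP5MC2 each had 1 probe set that passed the filter, so neither has a second reading.

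**Figure D3:**
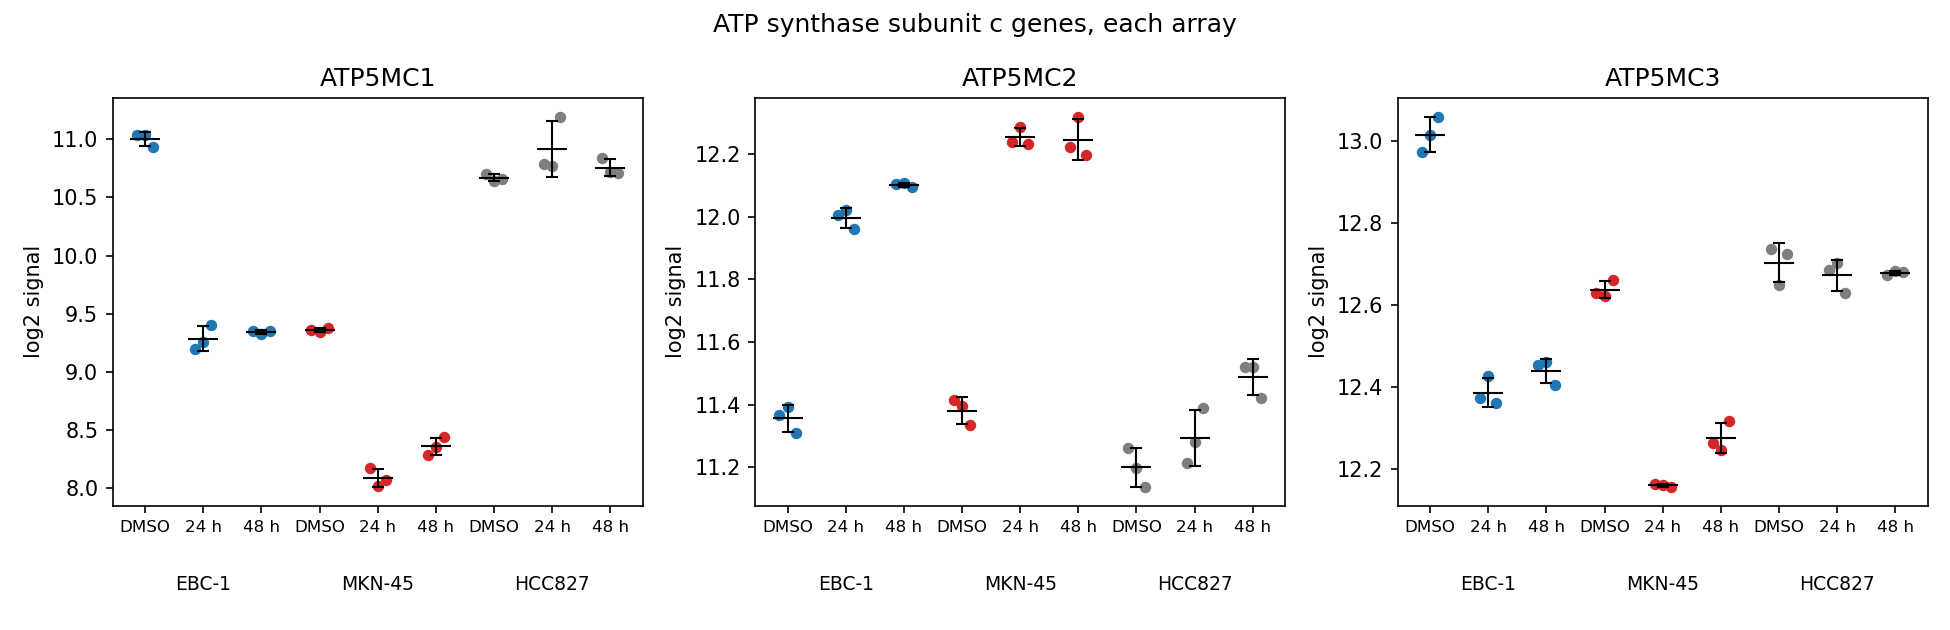
Log2 signal (vertical axis) of ATP5MC1, ATP5MC2 and ATP5MC3, the 3 genes of ATP synthase subunit c, on each array, by line and treatment, with mean and SD of 3 arrays. In EBC-1 and MKN-45 ATP5MC1 and ATP5MC3 lie lower with SGX-523 and ATP5MC2 higher, and in HCC827 only ATP5MC2 at 48 h passed the test.

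The difference between the responses of 2 lines was tested with an interaction contrast. Between EBC-1 and MKN-45 33 of 88 members differed at 24 h, 13 with a lower and 20 with a higher change in EBC-1, beside 23.8% and 18.4% of all genes. At 48 h 44 differed, 31 lower and 13 higher, beside 29.4% and 19.6%. At 24 h the lower changes in EBC-1 were led by NDUFAF5 (difference -0.92), NDUFAF4 (-0.76) and NDUFA10 (-0.57), and the higher ones by UQCRC1 (0.69), SDHA (0.64) and NDUFB10 (0.60). At 48 h NDUFAF4 (-1.11, SE 0.09, adjusted p = 4.57e-10), NDUFAF5 (-1.06) and NDUFB9 (-0.72) led the lower changes and UQCRC1 (0.99, adjusted p = 1.06e-07) and SDHA (0.65) the higher. ATP5MC1 fell further in EBC-1 at both times, by 0.45 (adjusted p = 0.00235) and 0.66 (adjusted p = 2.72e-05).

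NDUFB9, an accessory subunit with 3 probe sets that all read lower in EBC-1, fell by 0.67 and 0.81 there and changed by -0.13 and -0.09 in MKN-45 without passing. Its values with DMSO in EBC-1 were 11.98, 11.98 and 11.88, and at 48 h 11.10, 11.15 and 11.15. NDUFB10 rose by 0.42 in EBC-1 at 24 h, from 10.50, 10.52 and 10.41 to 10.86, 10.90 and 10.94, and fell in MKN-45 by 0.18, from 10.33, 10.36 and 10.31 to 10.13, 10.22 and 10.12. The groups of NDUFB10 did not overlap in either line.

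**Figure D4:**
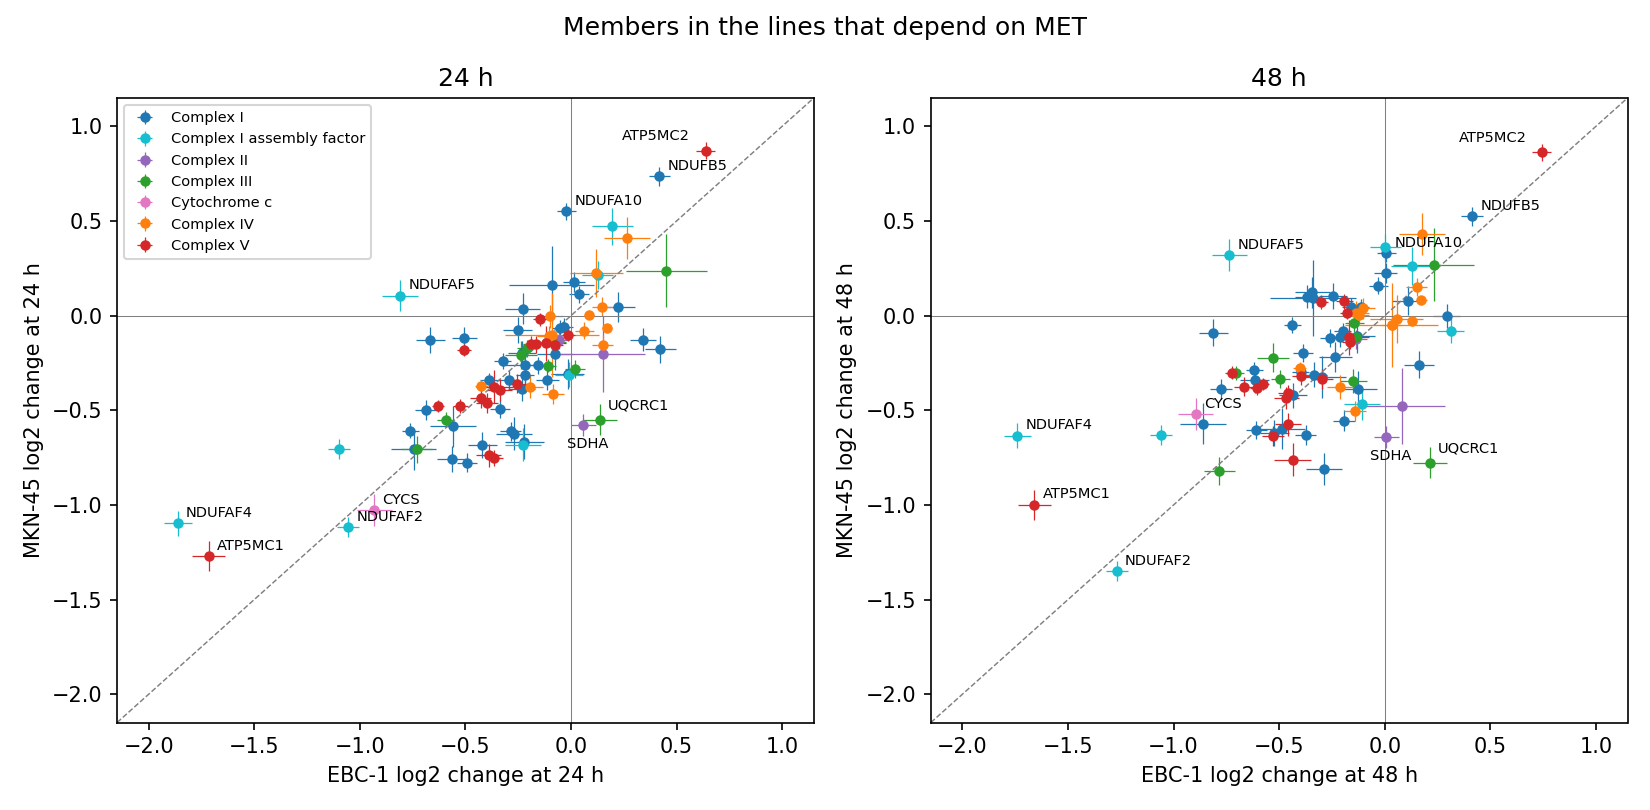
Change of each tested member in EBC-1 (horizontal axis) against MKN-45 (vertical axis), both as mean log2 signal with SGX-523 minus DMSO, in a panel for 24 h and one for 48 h; bars are standard errors and the dashed line marks equal changes. ATP5MC1 and NDUFAF4 fell further in EBC-1, UQCRC1 and SDHA fell in MKN-45 and lie to the right of the line, and ATP5MC2 and NDUFB5 rose in both.

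Against HCC827, most of the members whose response differed had a lower one in both MET-addicted lines. In EBC-1 59 members differed from HCC827 at 24 h, 48 lower and 11 higher, beside 23.4% and 28.2% of all genes (51.6% in all), and 62 at 48 h, 56 lower and 6 higher, beside 24.2% and 24.5%. In MKN-45 67 differed at 24 h, 58 lower and 9 higher, beside 22.3% and 30.4% (52.7% in all), and 48 at 48 h, 42 lower and 6 higher, beside 21.5% and 29.6%. Among 18 complex V members 13 and 16 were lower in EBC-1 than in HCC827 and 14 and 13 in MKN-45. ATP5MC1 showed the widest gap in EBC-1, -1.97 at 24 h (adjusted p = 2.91e-13) and -1.75 at 48 h, and NDUFAF2 in MKN-45 at 48 h, -1.19. ATP5MC2 responded more strongly than in HCC827 in both lines and at both times, by 0.54 and 0.46 in EBC-1 and by 0.78 and 0.58 in MKN-45. Without the array that stands apart, the 24 h counts were 66 and 68. The shares of all genes in that fit are not given here, so these counts cannot be set against them.

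The 2 treated times were compared directly, without the DMSO arrays. In EBC-1 14 members differed between 48 h and 24 h, 11 lower and 3 higher, beside 6.08% and 4.99% of all genes. After centring each array the split was 15 lower and 1 higher, and the shares of all genes then are not given here. UQCRH (-0.29), NDUFB10 (-0.26) and ATP5F1A (-0.23) were lower at 48 h in EBC-1 and NDUFAF6 was higher (0.32). UQCRH was 0.25 higher, without passing, when probe sets ending in _s_at or _x_at were left out. In MKN-45 37 members differed, 12 lower and 25 higher, beside 9.34% and 14.9%. CYCS was higher at 48 h by 0.51 (adjusted p = 6.09e-05), NDUFAF4 by 0.46 and ATP5PF by 0.34 (adjusted p = 1.96e-06), and each was still below DMSO. ATP5F1D (-0.38) and NDUFAF2 (-0.23) were lower still.

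In HCC827 27 members differed between the times, 15 lower and 12 higher, beside 10.7% and 15.8%, with NDUFAF4 (-0.52), NDUFAF6 (-0.50) and NDUFB9 (-0.35) furthest down and SDHD (0.58), COX7A2L (0.34) and NDUFAF7 (0.34) furthest up. The arrays of SDHD overlapped between the times, and its 24 h group includes the reading of 9.31 on the array that stands apart. After quantile normalization the shares over all genes were 15.2% lower and 14.4% higher, with 16 and 12 members. The count went from 14 without HCC827 48 h replicate 2 to 41 without 24 h replicate 1 and 48 without 24 h replicate 2. Shares of all genes in those fits were not counted. NDUFAF6 was at 10.40, 10.31 and 10.36 with DMSO, at 10.41, 10.44 and 10.26 at 24 h and at 9.89, 9.89 and 9.84 at 48 h. Only its 48 h arrays stood below DMSO, a fall of 0.49 (adjusted p = 6.54e-06).

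With DMSO alone EBC-1 and MKN-45 differed in 62 of 88 members, 30 lower and 32 higher in EBC-1, beside 34% and 33.6% of all genes, and the share of members lay close to that of all genes. The largest differences were those of ATP5MC1 (1.64) and NDUFAF4 (1.61), followed by SDHD (1.18), NDUFAF5 (1.18) and NDUFA6 (1.16). UQCRC1 was 0.80 lower in EBC-1 and ATP5F1D 0.88 lower. The responses of these genes were measured against the same DMSO arrays. ATP5MC1 with SGX-523 at 24 h read 9.20 to 9.40 in EBC-1 and 8.02 to 8.17 in MKN-45.

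Factors that build the other complexes moved with the members they serve only in part. Of 6 complex III assembly factors 5 fell in EBC-1 at each time, 5 in MKN-45 at 24 h and 4 at 48 h. UQCC2, which helps make cytochrome b, fell by 1.46 and 1.41 in EBC-1 and by 0.82 and 0.65 in MKN-45, and UQCC3 by 1.01 and 0.90, and by 1.11 and 1.00. Of 22 complex IV assembly factors 12 fell and 7 rose at 24 h in each of the 2 lines: COX20 fell by 1.70 and 1.64 in EBC-1 and COA3 rose by 0.20 and 0.41 in EBC-1 and by 0.61 and 0.98 in MKN-45. At 48 h 11 of the 22 fell and 7 rose in EBC-1, and 11 fell and 6 rose in MKN-45. Of 4 complex V assembly factors none fell at 24 h in either line, and 1 fell at 48 h in each. TMEM70 rose by 0.45 and 0.43 in EBC-1 and by 1.69 and 1.54 in MKN-45. These lists were chosen with earlier results of these data known, and their counts stand beside the shares over all genes given above.

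Among 12 regulators of mitochondrial biogenesis 8 fell and 2 rose in EBC-1 at each time, 6 and 1 in MKN-45 at 24 h and 5 and 1 at 48 h. PPRC1, a coactivator related to PGC-1 alpha, fell by 2.02 and 1.78 in EBC-1, by 1.25 and 0.86 in MKN-45 and by 0.46 in HCC827 at 48 h. TFAM, which packages mitochondrial DNA and starts its transcription, fell by 1.12 and 1.30 in EBC-1 and by 0.79 and 0.71 in MKN-45. PPARA, a receptor that drives fatty acid oxidation genes, rose by 1.71 and 1.82 in EBC-1, by 0.30 and 0.53 in MKN-45 and by 1.13 in HCC827 at 48 h. Among 13 genes of uncoupling and ubiquinone synthesis 5 fell and 5 rose in EBC-1 at 24 h and 4 fell and 7 rose in MKN-45 at 24 h. PDSS1, which makes the side chain of ubiquinone, fell by 2.33 at 24 h and fell by 2.36 at 48 h in EBC-1, by 2.07 and 1.98 in MKN-45 and by 0.63 in HCC827 at 48 h. COQ8A, a factor of ubiquinone synthesis, rose by 1.76 and 1.56 in EBC-1 and by 1.71 and 2.10 in MKN-45. UCP2, an inner membrane carrier, rose by 0.49 and 0.39 in EBC-1 and by 1.72 and 1.77 in MKN-45.

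Promoter letters were counted in RefSeq windows of 250 bases, which matched 76 of the 93 members. A gene counted if any of its windows held the letters. GCATGCGC, on either strand, was in 13 members (17.1%), beside 5.36% of the tested genes and 3.22% of all 27305 genes with a window. CCGGAAGT, a core of ETS-family sites, or its reverse complement ACTTCCGG, was in 12 members (15.8%), beside 7.88% and 4.13%. CACGTG, the E-box read by MYC and related factors, was in 7 (9.21%), beside 11% and 7.73%. Among the 32 matched members that fell in all 4 comparisons these shares were 18.8%, 21.9% and 12.5%, beside 16.7%, 11.9% and 7.14% of the 42 other tested members. ATP5MC2, which rose, and CYCS and ATP5PF, which fell, all hold GCATGCGC, and a match in these letters is a description of the sequence only.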

How the data were processed

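Total RNA of 27 samples was hybridised as biotin-labelled cRNA to 3' expression arrays, 3 arrays per group, per the labels' protocols. The deposited table holds log2 signals per probe set. MAS5 is named in the submitters' processing notes with no role, and the authors' normalization is not stated in any source used. The 45 external controls and the 3' to 5' differences were read from the same table.

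Of 49395 probe sets, those naming several genes (1832) were left out, and the filter kept probe sets at or above the array median on 3 or more arrays. The brightest kept probe set stood for its gene, for 12386 genes. All 9 groups were fitted together with limma 3.58.1 in R 4.3.3 (lmFit, contrasts.fit, eBayes with an intensity trend, 18 residual degrees of freedom), with Benjamini-Hochberg adjustment over all genes tested and calls at adjusted p under 0.05. The fit was tested on simulated data. The number of arrays limits the precision, and if the replicates were not separate cultures the p-values measure technical spread alone.

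Members and pathway lists were chosen with earlier results of these data known. Named in each comparison with DMSO were up to 6 members with the largest calls in each direction, the core subunits, the paired isoforms, and for other comparisons up to 5 in each direction; from a pathway list, up to 4 genes with the smallest adjusted p. Other names, and the grouping into core, stalk and ring, were chosen after values were seen. Alternatives covered normalization, centring, the filter, the choice of probe set, the fit, array weights, a replicate block and left-out arrays. Promoter windows came from RefSeq (GRCh38.p14). Some control source names count upward within a line, and groups were taken from the titles.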

Additional observations from a re-analysis of the deposited data

Results flagged for a closer look

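The responses of 2 lines were set against each other by interaction contrasts (limma, adjusted p under 0.05), and the number of members that differed was 33 at 24 h and 44 at 48 h between EBC-1 and MKN-45, 59 and 62 between EBC-1 and HCC827, and 67 and 48 between MKN-45 and HCC827. Those numbers are counts of 88 members, and the shares over all genes were 42.1%, 49%, 51.6%, 48.7%, 52.7% and 51.1% in the same order. Between EBC-1 and MKN-45, and between MKN-45 and HCC827 at 48 h, the share of members lay close to that of all genes.

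At 24 h 3 members passed in opposite directions in EBC-1 and MKN-45, all higher in EBC-1. COX6A1, a subunit of complex IV, differed by 0.24 (SE 0.03, adjusted p = 1.75e-06), COX6C, another, by 0.31 (adjusted p = 0.00129), and the complex I subunit NDUFB10 by 0.60 (adjusted p = 3.4e-05). A second probe set of COX6C was called higher in EBC-1 and not called in MKN-45, while that of COX6A1 was called in neither.

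At 48 h 2 members did so. The assembly factor NDUFAF5 had a response lower in EBC-1 by 1.06, a difference of -1.06 (SE 0.12, adjusted p = 5.07e-08), and the complex III core protein UQCRC1 one higher by 0.99 (SE 0.12, adjusted p = 1.06e-07). NDUFAF5 and NDUFB10 have 1 kept probe set each. The second probe set of UQCRC1 changed by -0.10 in EBC-1 and -0.92 in MKN-45 at 48 h.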

How the results depend on the processing

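Median changes of the members kept their sign in EBC-1 and MKN-45 under all settings run, between -0.23 and -0.14 and between -0.29 and -0.16 in EBC-1 at 24 h and 48 h, and between -0.30 and -0.18 and between -0.25 and -0.13 in MKN-45. Counts varied more under the alternatives than when each compared array was left out in turn. For EBC-1 the alternatives gave 37 to 58 members called lower (24 h) and 46 to 66 (48 h). For MKN-45 they gave 40 to 66 (24 h) and 38 to 55 (48 h). Members called higher numbered 8 to 15, 6 to 12, 5 to 11 and 7 to 19 in that order. Some alternatives tested fewer members, 72 without probe sets ending in _s_at or _x_at and 78 without non-subunits. Counts that moved by over 1.5 times were these. In MKN-45 at 24 h 5 members rose after centring and 5 without assembly factors and other non-subunits; at 48 h 19 rose after quantile normalization and 7 without non-subunits. In HCC827 at 48 h 4 fell in a fit of that line alone and 8 without non-subunits, while 3 rose without the intensity trend, 3 in the separate fit, 20 with array weights and 12 without the array that stands apart, where 4648 genes passed in place of 2754. For 48 h against 24 h EBC-1 gave 29 in a separate fit, 32 without that array, 9 without probe sets ending in _s_at or _x_at and 29 with array weights, MKN-45 gave 57 without that array and 23 without those probe sets, and HCC827 gave 4 in a separate fit. EBC-1 minus MKN-45 at 24 h gave 50 with array weights. Apart from the total for HCC827 at 48 h, shares of all genes under these settings are not given here. The shifts in these counts therefore cannot be told from shifts over all genes.

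Leaving out in turn each array of the groups compared gave 44 to 49 lower and 7 to 10 higher in EBC-1 at 24 h, 53 to 59 and 7 to 8 at 48 h, 52 to 55 and 7 to 8 in MKN-45 at 24 h, 46 to 49 and 11 to 12 at 48 h, 0 to 15 and 0 to 15 in HCC827 at 24 h and 9 to 12 and 4 to 6 at 48 h. For 48 h against 24 h, again over the arrays of the groups compared, the ranges were 11 to 14 in EBC-1, 28 to 34 in MKN-45 and 14 to 48 in HCC827. Without probe sets ending in _s_at or _x_at, CYCS changed by 0.16 and 0.64 in EBC-1 at 24 h and 48 h, 0.28 in MKN-45 at 48 h and 0.57 for EBC-1 minus HCC827 at 24 h. COX4I1 changed by -0.17 and -0.11 in EBC-1 and -0.60 in HCC827 at 48 h, and UQCRH by 0.25 in EBC-1 at 48 h against 24 h. With probe sets averaged, COX4I1 changed by -0.16 and UQCR11 by -0.047 in HCC827 at 48 h. The cause of these shifts was not tested.

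Same-numbered replicates had correlations of deviations from -0.197 to 0.159, with 5 of 27 pairs over 0.1. Pairs with different numbers had -0.191 to 0.182, with 7 of 54 over 0.1. No shared deviation stood out, but this cannot show whether the numbers pair the samples. With the replicate block the counts were 49 lower and 11 higher in EBC-1 at 24 h, 58 and 8 at 48 h, 56 and 8 in MKN-45 at 24 h, 50 and 11 at 48 h, 0 and 0 in HCC827 at 24 h and 12 and 4 at 48 h. The shares of all genes with the block are not given here. Signal near background limits 5 members, which stayed below the filter.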

Other observations

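Other mitochondrial gene groups were described by counts in the same comparisons, from lists chosen with earlier results known. Over all genes tested 28.1% and 28.9% fell in EBC-1 at 24 h and 48 h, 26.9% and 26.2% in MKN-45 and 10.7% in HCC827 at 48 h, and 31.2%, 32.8%, 33.4%, 36.4% and 11.6% rose. Of 17 genes of mitochondrial protein import, 13 fell in EBC-1 at 24 h and 14 at 48 h, 13 and 14 in MKN-45 and 7 in HCC827 at 48 h, with medians of -0.76, -0.88, -0.64, -0.57 and -0.21, while 2 rose in EBC-1 at each time and in MKN-45 at 24 h. GRPEL1, the exchange factor of the import motor, fell by 1.70 and 1.61 in EBC-1, by 1.69 and 1.53 in MKN-45 and by 0.33 in HCC827 at 48 h. Of 11 genes of cristae and supercomplex organisation 8 fell in EBC-1 at each time, 7 and 8 in MKN-45 and 2 in HCC827 at 48 h, while at most 1 rose in any of these comparisons, and PHB1, a prohibitin of the inner membrane, fell by 1.27 and 1.36, by 1.37 and 1.22, and by 0.29. The gene that rose was COX7A2L, which is also an oxidative phosphorylation member, so this list overlaps with the members. Of 19 genes of mitochondrial DNA maintenance and expression 13 and 15 fell in EBC-1, 13 and 9 in MKN-45 and 9 in HCC827 at 48 h, while 1 rose in EBC-1 at each time and 4 and 2 in MKN-45. SLIRP, which stabilises mitochondrial messenger RNA, fell by 1.45 and 1.57 in EBC-1, by 0.63 and 0.43 in MKN-45 and by 0.11 in HCC827 at 48 h.

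Genes that feed the chain with electrons moved as follows. Of 17 genes of the TCA cycle and pyruvate dehydrogenase 11 and 12 fell in EBC-1 and 7 and 9 in MKN-45, where 2 rose at each time. DLAT, the acetyltransferase of pyruvate dehydrogenase, fell by 1.13 and 1.24 in EBC-1 and by 1.22 and 1.29 in MKN-45, while SUCLG1 of succinyl-CoA ligase fell by 0.27 and 0.38 in EBC-1 and rose by 1.07 and 1.20 in MKN-45. The pyruvate dehydrogenase kinases, which switch that enzyme off, parted: PDK1 fell by 1.12 and 0.86 in EBC-1 and by 2.16 and 2.04 in MKN-45, PDK2 rose by 1.30 and 1.36 and by 1.94 and 1.51, and PDK4 rose by 2.33 and 2.42, by 0.81 and 0.99, and by 0.87 in HCC827 at 48 h. Of 18 glycolysis genes 13 fell in EBC-1 at each time, and 17 and 18 in MKN-45, with medians of -0.87, -0.74, -1.76 and -2.11. Of 9 genes of fission, fusion and mitophagy 6 fell and 2 rose in EBC-1 at each time, 5 and 3 in MKN-45 at 24 h and 4 and 4 at 48 h. PINK1, a kinase that marks damaged mitochondria for removal, rose by 2.39 and 2.63 in EBC-1 and by 0.44 and 0.36 in MKN-45. The mitophagy receptor BNIP3L rose by 1.05 and 1.13 in EBC-1 and fell by 0.93 and 0.51 in MKN-45, and BNIP3 fell by 0.62 and 0.71 in EBC-1 and by 1.97 and 2.15 in MKN-45.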
